A study of Mus musculus with 23 samples.

Results

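The 36 genes described here encode ionotropic and metabotropic glutamate receptors, auxiliary proteins of the AMPA receptor and the scaffolds that hold these receptors at the excitatory synapse. They were chosen by name, as a list of receptor subunits and scaffolds, and all 36 are in the table of 13766 genes measured in the hippocampus of FCG mice. In this model Sry, the gene that starts testis development, sits on an autosome in place of the Y chromosome, so that gonad type is inherited separately from the sex chromosomes. The 4 groups were XX mice with ovaries (XXF, n = 5), XX mice with testes (XXM, n = 6), XY mice with ovaries (XYF, n = 6) and XY mice with testes (XYM, n = 6). All were on a C57Bl/6J background and about 12 months old, and each library came from 1 animal. The Y chromosome of this model lacks Sry in both XY groups, and both groups with testes carry the Sry transgene, so an effect of the transgene outside the gonad cannot be told apart from that of the gonad. Pups were weaned into cages by inspection of the genitalia, so cage type cannot be told apart from gonad type either.

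Fast excitatory transmission in the hippocampus runs through AMPA receptors, tetramers of the GluA subunits encoded by Gria1 to Gria4. NMDA receptors combine the obligatory GluN1 subunit, encoded by Grin1, with GluN2 or GluN3 subunits and admit the calcium that starts synaptic plasticity, while metabotropic receptors signal through G proteins. Auxiliary proteins set the trafficking and gating of AMPA receptors, and MAGUK (membrane-associated guanylate kinase), Shank and Homer proteins link receptors to each other and to the cytoskeleton.

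The transcripts of these genes differ widely in base composition, which matters below because the libraries differed in how strongly their read counts rose or fell with GC content. The following sequences are the middle 120 bases of the longest coding exon of 4 genes, chosen after the values were seen to span that range, with every G and C in capitals, read 5′ to 3′ on the coding strand from the GENCODE M21 models of GRCm38. For Gria2, exon 11 at chr3:80707013-80707132 on the minus strand, the window held 45.8% GC and the longest transcript 36.8%. For Grin2b, exon 14 at chr6:135732965-135733084 on the minus strand, these were 55.0% and 45.7%. For Shank1, exon 24 at chr7:44353041-44353160 on the plus strand, they were 68.3% and 61.4%. For Cacng8, exon 6 at chr7:3415161-3415280 on the plus strand, they were 74.2% and 65.1%.
Gria2: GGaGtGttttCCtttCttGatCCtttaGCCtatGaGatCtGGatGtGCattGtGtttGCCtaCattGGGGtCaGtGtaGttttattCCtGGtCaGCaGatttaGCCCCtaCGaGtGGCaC
Grin2b: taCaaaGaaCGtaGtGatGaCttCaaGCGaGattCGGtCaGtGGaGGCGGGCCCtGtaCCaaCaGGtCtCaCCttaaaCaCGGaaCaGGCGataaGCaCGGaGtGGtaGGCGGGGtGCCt
Shank1: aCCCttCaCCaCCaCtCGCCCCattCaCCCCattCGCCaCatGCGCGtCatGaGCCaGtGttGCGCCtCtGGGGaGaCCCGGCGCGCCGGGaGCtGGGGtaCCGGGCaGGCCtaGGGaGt
Cacng8: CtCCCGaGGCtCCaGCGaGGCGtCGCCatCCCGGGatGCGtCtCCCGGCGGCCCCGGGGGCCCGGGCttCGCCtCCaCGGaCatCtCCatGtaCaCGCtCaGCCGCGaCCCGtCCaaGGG

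Totals ran from 10257790 to 36078235 estimated counts per library. Levels below are CPM, counts per 1000000 after TMM scaling of the library totals. Levels of Uty, Kdm5d, Eif2s3y and Ddx3y, all on the Y chromosome, matched the labels in all 23 libraries. Xist, the RNA that silences an X chromosome, reached 936 to 1468 CPM in the 11 XX libraries and at most 2.86 CPM in the XY libraries other than XYF replicate 4, which had 94.1 CPM. That library also had the highest summed level of the 5 measured striatal markers, 187 CPM against a median of 98.0 CPM, and of the 6 thalamic markers, 157 CPM against a median of 129 CPM. The 6 measured choroid plexus markers summed to 1884 to 3292 CPM in 7 libraries (1 XXF, 4 XXM, 1 XYF and 1 XYM) and to 53.7 to 209.8 CPM in the others. The 4 measured excitatory neuron markers summed to 4527 to 6169 CPM, with overlapping ranges in the 4 groups, and no measured marker of the hippocampal neuron lists was under 1 CPM in every library.

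No glutamate receptor or scaffold gene differed between the groups after correction for all genes tested. With edgeR's quasi-likelihood test and Benjamini-Hochberg adjustment at 0.05, 0 of 36 genes passed for the sex chromosome effect (both XY groups against both XX groups), where 0.283% of all genes passed. For the gonad effect (both groups with testes against both with ovaries) 0 of 36 passed, against 0.16% of all genes. The interaction (the gonad effect in XY minus that in XX) gave 0 of 36 and 0% of all genes. The difference XYM minus XXF gave 0 of 36 and 0.131% of all genes. In the 4 comparisons of neighbouring groups 0 of 36 passed as well, with 0.291% of all genes for XYF minus XXF, 0.116% for XYM minus XXM, 0% for XXM minus XXF and 0.225% for XYM minus XYF. DESeq2, limma voom and limma on the deposited log2 values also called 0 of 36 in each of the 8 comparisons. At an unadjusted p under 0.05, edgeR had 9 of 36 genes for the sex chromosome effect (6.78% of all genes), 6 for the gonad effect (13.6%), 0 for the interaction (3.23%) and 6 for XYM minus XXF (10.1%). It had 4 for XYF minus XXF (5.17%), 1 for XYM minus XXM (5.29%), 1 for XXM minus XXF (7.71%) and 7 for XYM minus XYF (8.63%).

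The fitted values bounded how large a difference could have been missed for most of the genes. For the sex chromosome effect the 95% interval of 35 of 36 genes lay within 1.5-fold in both directions and that of 33 within 1.25-fold. The same held for 13174 and 11106 of all 13766 genes. For the gonad effect these counts were 35 and 32 of 36, beside 13111 and 10760 of all genes. For the interaction they were 34 and 21, beside 10757 and 5976. For XYM minus XXF they were 33 and 28, beside 12058 and 8286. The tissue was homogenised whole, so fewer cells of a type and less RNA per cell cannot be told apart.

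**Figure D1:**
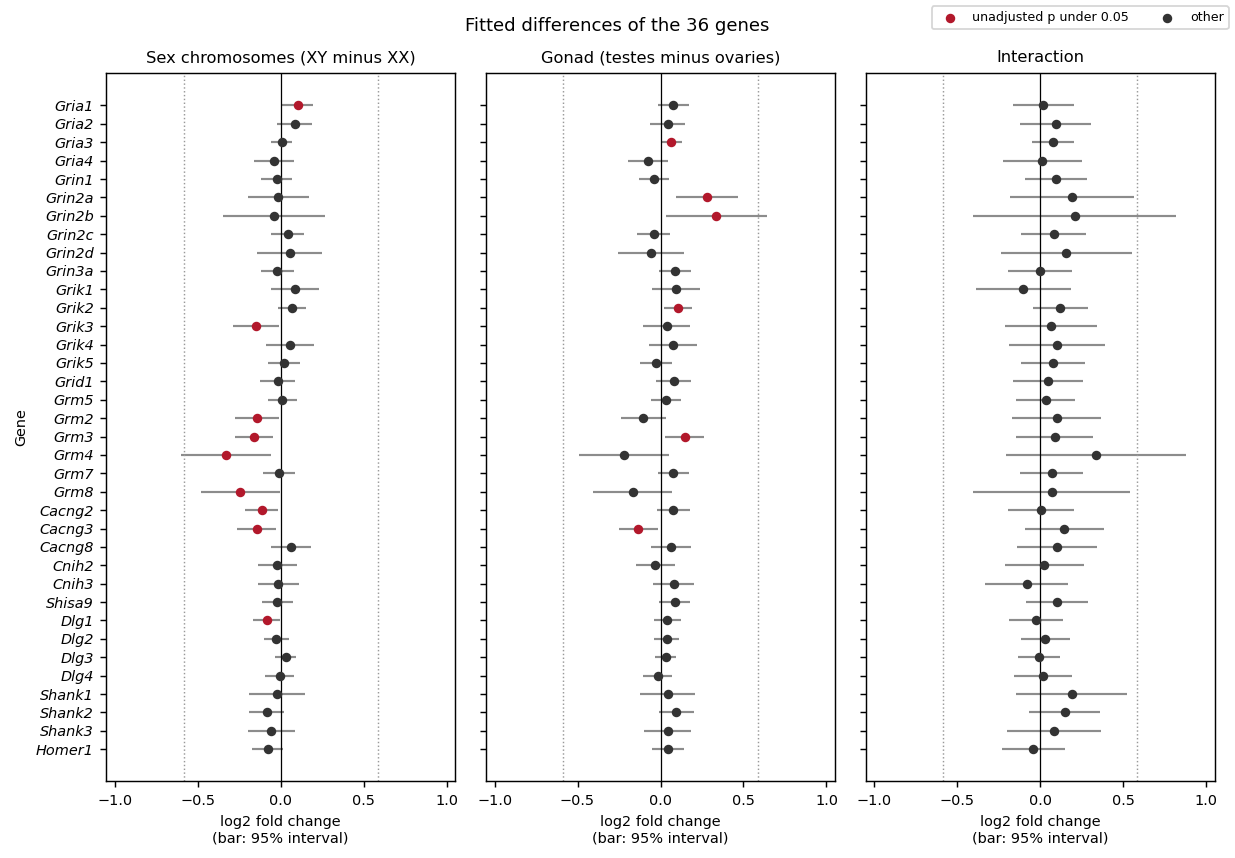
Fitted log2 fold change (x axis) of each of the 36 genes (y axis, by class) for the sex chromosome effect, the gonad effect and the interaction, with bars for the 95% interval, dotted lines at 1.5-fold and red points for an unadjusted p under 0.05. Most intervals include 0, and the widest belong to Grm4, Grm8 and Grin2b.

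Levels between genes are given as CPM per kilobase of the full reference exons. For 12 of 36 genes the span in the table ended more than 1000 bases short of the reference 3′ end. Levels over shortened exons, those inside the deposited span, and over the longest transcript are therefore added where they change an order or move a level by over 1.5 times. Genes are said to differ beyond their spread where their mean ± SD over the 23 libraries do not overlap. This description makes no use of both genes being measured in the same libraries.

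Among the 4 AMPA receptor subunits the level per kilobase of exon fell from Gria1 to Gria4. Gria1, a subunit inserted at synapses during long-term potentiation, had 221 ± 17.99 CPM per kb (SD, n = 23), the highest of the 36 genes. Gria2, whose edited subunit makes the channel impermeable to calcium, had 95.7 ± 8.40 CPM per kb. Gria3, on the X chromosome, had 48.7 ± 2.25 CPM per kb, and Gria4 had 14.2 ± 1.47 CPM per kb. Gria1 made up 58.2% ± 2.36 of the class (SD, n = 23), between 53.6% and 65.6% in single libraries. Gria2 had 144 ± 12.7 CPM per kb over shortened exons. Neighbours in this order did not overlap in mean ± SD with any of the 3 lengths.

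In CPM, Gria1 had 1153, 1230.1, 1052, 1217 and 1362 in the 5 XXF libraries. Its lowest, median and highest values were 1114, 1272 and 1347 CPM in XXM, 1125, 1294 and 1363 CPM in XYF, and 1265, 1350.3 and 1503 CPM in XYM. The 4 ranges overlapped, with XYM highest by mean and XXF lowest. The fitted sex chromosome effect of Gria1 was a log2 fold change of 0.10 (SE 0.044, edgeR adjusted p = 0.667), and XYM minus XXF was 0.18 (SE 0.064, edgeR adjusted p = 0.327). The X-linked Gria3 had a sex chromosome effect of 0.01 (SE 0.030, edgeR adjusted p = 0.990). Its gonad effect was 0.07 (SE 0.030, edgeR adjusted p = 0.345) and was 0.03 with the library slopes on GC content and length as covariates.

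Of the 6 NMDA receptor subunits, Grin1 stood far above the GluN2 and GluN3 genes. It had 113 ± 8.23 CPM per kb (SD, n = 23), and made up 77.3% ± 1.89 of the class. Grin2c, a GluN2 gene best known from cerebellum and astrocytes, had 10.9 ± 0.84 CPM per kb and Grin3a had 7.77 ± 0.61 CPM per kb. Grin2a, the GluN2 gene that rises during maturation, had 6.80 ± 1.25 CPM per kb, and Grin2b, the GluN2 gene abundant early in life, had 5.68 ± 1.62 CPM per kb. With full exons the levels of Grin3a, Grin2a and Grin2b did not differ beyond their spread. Grin2d, the GluN2 gene typical of interneurons, had 1.82 ± 0.29 CPM per kb. The spans of Grin2a and Grin2b in the table ended 9812 and 16572 bases short of the reference 3′ ends. Over shortened exons Grin2a had 22.6 ± 4.15 and Grin2b 17.1 ± 4.90 CPM per kb, which put both above Grin2c and Grin3a, and Grin3a then differed from them beyond the spread. The order of the GluN2 and GluN3 genes by level therefore depended on the length used. In the ratio taken over the exons inside the deposited spans, Grin2a stood above Grin2b by 0.43 ± 0.20 on the log2 scale (SD, n = 23), against 0.29 with full exons.

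Grin1 had 518, 550.1, 454, 497 and 543 CPM in the 5 XXF libraries. The lowest, median and highest values were 429.9, 491 and 498 CPM in XXM, 432, 487 and 538 CPM in XYF, and 439, 499 and 534 CPM in XYM. All 4 ranges overlapped.

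Grin2a and Grin2b, the 2 principal GluN2 genes of hippocampus, varied more among libraries of a group than nearly all genes of like level. With 1 library per animal, differences between animals and between library preparations cannot be told apart. Grin2a had 87.0, 79.6, 76.4, 106 and 127 CPM in XXF. It had 88.5, 111 and 122 CPM (lowest, median and highest) in XXM, 59.9, 90.2 and 105 CPM in XYF, and 102, 113 and 141 CPM in XYM. Both groups with testes had the higher medians, but XXF replicate 5 lay above every XXM library and the ranges of XXF and XXM overlapped. The gonad effect of Grin2a was 0.28 (SE 0.091), the smallest adjusted p of the 36 genes in that comparison (edgeR adjusted p = 0.204). Without XXF replicate 5 it was 0.34 (edgeR adjusted p = 0.0609), and with the library slopes on GC content and length as covariates it was 0.14 (edgeR adjusted p = 0.621). Without XYF replicate 4 it was 0.24 (edgeR adjusted p = 0.287).

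Grin2b had 101, 87.5, 90.7, 144 and 229 CPM in XXF, so that replicate 5 stood well above the other 4 libraries of its group. It had 111, 154 and 197 CPM (lowest, median and highest) in XXM, 65.5, 131 and 143 CPM in XYF, and 125, 164 and 207 CPM in XYM. The XXF range enclosed those of XXM and XYM, and XYF replicate 4 was the lowest of all 23 libraries. The fitted gonad effect was 0.34 (SE 0.149, edgeR adjusted p = 0.325). It was 0.49 without XXF replicate 5 (edgeR adjusted p = 0.0713), 0.28 without XYF replicate 4 (edgeR adjusted p = 0.427) and 0.20 with the slopes as covariates (edgeR adjusted p = 0.726).

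Across libraries Grin2b ranged 3.49-fold and Grin2a 2.36-fold. The SD of log2 CPM around the group means was 0.41 for Grin2b, above 99.6% of genes of like mean level, and 0.25 for Grin2a, above 98.5%. After removal of the library slopes on GC content and length these SDs were 0.34 and 0.18, above 99.4% and 97.2% of genes of like level. Without XYF replicate 4 they were 0.37 and 0.21. In the plot of Grin2a and Grin2b by library the pair rose and fell together, and the log2 ratio of Grin2a to Grin2b had an SD of 0.21 around the group means, smaller than that of Grin2b alone. Its group means were 0.35 in XXF, 0.25 in XXM, 0.33 in XYF and 0.26 in XYM with full exons, and the ranges overlapped.

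**Figure D2:**
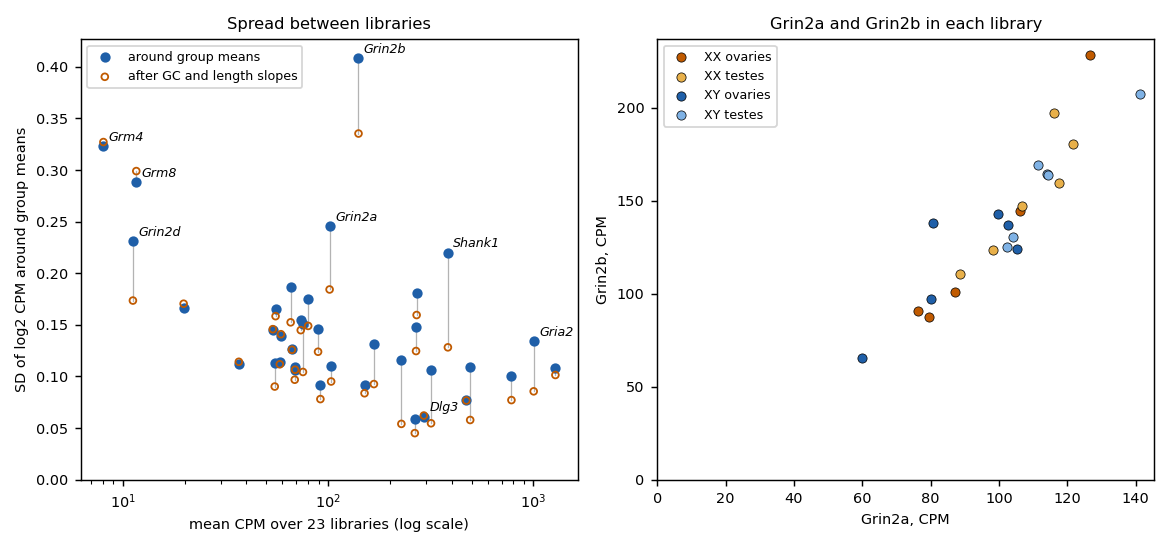
Left, SD of log2 CPM around group means (y axis) against mean CPM (x axis, log scale) for the 36 genes, before (filled) and after (open) removal of the library slopes on GC content and length; Grin2b and Grin2a stand above genes of like level. Right, CPM of Grin2b against CPM of Grin2a in each of the 23 libraries, coloured by group, from 59.9 and 65.5 CPM in XYF replicate 4 upwards.

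Kainate receptors were led by Grik5, a high-affinity subunit that forms channels only with other kainate subunits. Grik5 had 60.5 ± 4.51 CPM per kb (SD, n = 23) and 64.3% ± 1.98 of the class. Grik4, the other high-affinity subunit and enriched in CA3, had 11.03 ± 1.32 CPM per kb, Grik3 had 8.92 ± 1.15, Grik2 had 8.85 ± 0.69 and Grik1 had 4.68 ± 0.58. Levels of Grik4, Grik3 and Grik2, taken as neighbours in that order, did not differ beyond their spread with full exons. Over shortened exons Grik4 had 18.5 ± 2.22 and Grik2 16.01 ± 1.25 CPM per kb, and both then stood above Grik3 at 9.05 ± 1.17 CPM per kb beyond the spread. Grid1, the delta receptor subunit that binds presynaptic partners through cerebellins, had 11.7 ± 1.02 CPM per kb, and 19.5 ± 1.70 over shortened exons. Grid1 had 63.0, 59.5, 62.2, 64.4 and 80.2 CPM in XXF. It had 61.4, 69.2 and 74.9 CPM (lowest, median and highest) in XXM, 53.4, 65.2 and 71.0 CPM in XYF, and 65.7, 68.3 and 72.2 CPM in XYM. All 4 ranges overlapped, with XXF replicate 5 the highest library.

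Grik5 had 239, 255, 198, 229 and 236 CPM in XXF. It had 186, 228 and 235 CPM (lowest, median and highest) in XXM, 207, 226 and 258 CPM in XYF, and 216, 229.7 and 244 CPM in XYM, with overlap among all 4 groups. Grik2, the subunit of mossy fibre kainate receptors, had 80.6, 85.3, 89.4, 98.0 and 85.8 CPM in XXF. It had 87.3, 89.6 and 95.3 CPM in XXM, 76.2, 90.9 and 92.3 CPM in XYF, and 88.0, 101 and 106 CPM in XYM. XYM was the highest group by median, and its lowest library lay inside the ranges of the other 3 groups. The gonad effect of Grik2 was 0.11 (SE 0.041, edgeR adjusted p = 0.258), and 0.06 with the slopes as covariates. XYM minus XXF was 0.18 (SE 0.059, edgeR adjusted p = 0.298). The interaction of Grik2, 0.12 (SE 0.081, edgeR adjusted p = 0.999), had the smallest p of the 36 genes there.

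Metabotropic receptors fall into 3 groups by sequence and signalling. Grm5, the measured group I receptor, which couples to phospholipase C at the edge of the postsynaptic density, had 39.0 ± 2.66 CPM per kb (SD, n = 23). In group II, whose receptors lower cyclic AMP, Grm3 had 19.3 ± 2.34 and Grm2 had 11.8 ± 1.52 CPM per kb, and Grm3 made up 62.1% ± 4.14 of the pair. Over shortened exons Grm2 had 16.8 ± 2.17 CPM per kb and the pair no longer differed beyond the spread. In group III, mostly presynaptic receptors, Grm7 had 16.1 ± 1.22, Grm8 had 3.02 ± 0.66 and Grm4 had 1.44 ± 0.38 CPM per kb, the last being the lowest of the 36 genes. Grm7 made up 78.4% ± 4.04 of group III. Grm5 had 293, 296, 329, 328 and 326 CPM in XXF. It had 296, 319 and 340.3 CPM (lowest, median and highest) in XXM, 259.9, 319.9 and 348 CPM in XYF, and 292, 321 and 362 CPM in XYM. These 4 ranges overlapped.

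Grm3, found in neurons and astrocytes, had 51.2, 58.1, 63.5, 60.0 and 67.4 CPM in XXF. It had 57.3, 63.1 and 74.9 CPM (lowest, median and highest) in XXM, 47.5, 50.7 and 57.3 CPM in XYF, and 50.6, 59.0 and 67.0 CPM in XYM. XYF was lowest by median. All 6 XXM libraries lay above all 6 XYF libraries, by a gap smaller than the third digit (57.33 against 57.31 CPM), and the other pairs of groups overlapped. Grm3 was the single gene of the 36 without overlap between XXM and XYF, against 0.734% of all genes. The sex chromosome effect of Grm3 was -0.16 (SE 0.056), with the smallest adjusted p of the 36 genes in that comparison (edgeR adjusted p = 0.514). The gonad effect of Grm3 was 0.15 (SE 0.056, edgeR adjusted p = 0.261). Summed astrocyte markers, which include no glutamate receptor, had overlapping ranges in the 4 groups, 1583 to 1765 CPM in XXF, 1606 to 1876 in XXM, 1588 to 1765 in XYF and 1561 to 1950.3 in XYM. The part of cell composition in these values was not tested.

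Grm4, a presynaptic group III receptor best known from cerebellar granule cells, had 8.89, 9.64, 12.3, 8.98 and 12.0 CPM in XXF. It had 5.61, 8.06 and 9.63 CPM in XXM, 5.06, 8.08 and 8.59 CPM in XYF, and 4.76, 6.90 and 10.2 CPM in XYM. All 5 XXF libraries lay above all 6 XYF libraries. That was the single gene of the 36 whose values did not overlap between XYF and XXF, against 0.821% of all genes. None of the 36 genes was free of overlap in XYM minus XXF (1.53% of all genes), XYM minus XXM (0.37%), XXM minus XXF (0.763%) or XYM minus XYF (0.341%). The sex chromosome effect of Grm4 was -0.33 (SE 0.132, edgeR adjusted p = 0.597), and XYM minus XXF was -0.55 (SE 0.190, edgeR adjusted p = 0.320). Its interaction was 0.34 (SE 0.264, edgeR adjusted p = 0.999) and 0.19 without XYM replicate 6. Grm7 had 62.7, 59.2, 71.6, 70.8 and 76.9 CPM in XXF. It had 63.8, 70.1 and 76.7 CPM in XXM, 57.0, 67.4 and 70.6 CPM in XYF, and 67.7, 70.0 and 79.3 CPM in XYM, and these ranges overlapped.

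The other receptors of these groups with an unadjusted p under 0.05 for the sex chromosome effect were Grm2 at -0.14 (SE 0.065, edgeR adjusted p = 0.693) and Grm8 at -0.24 (SE 0.115, edgeR adjusted p = 0.729). For XYM minus XXF, Grm2 was at -0.25 (SE 0.094, edgeR adjusted p = 0.360) and Grm8 at -0.41 (SE 0.167, edgeR adjusted p = 0.394).

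**Figure D3:**
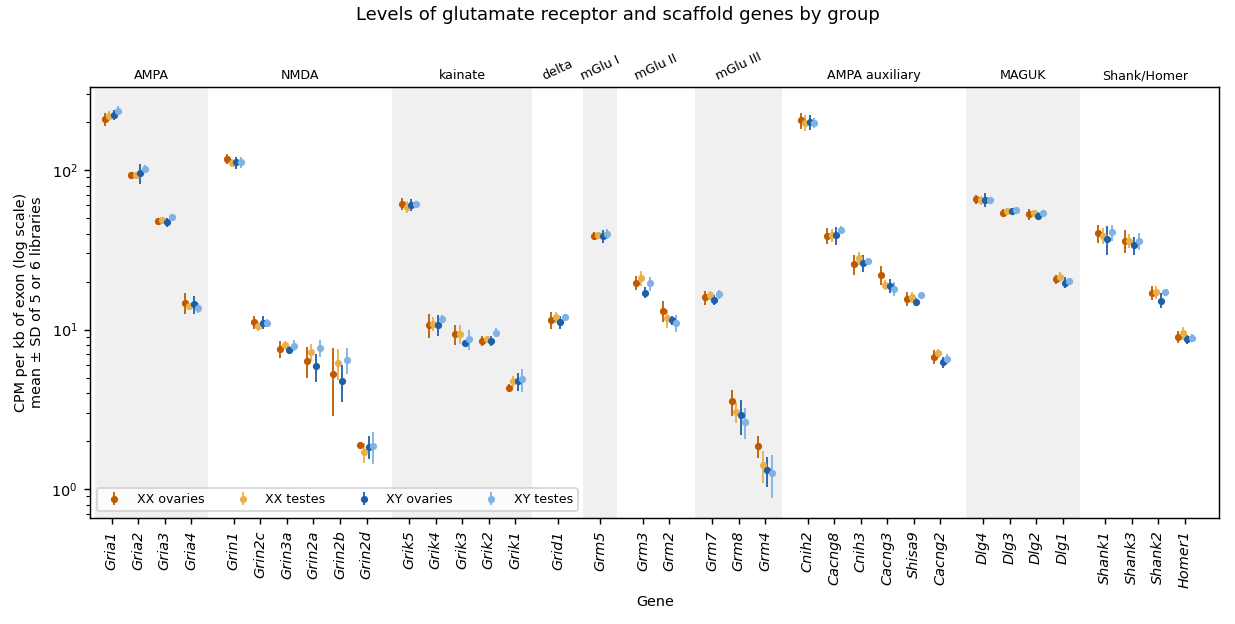
Mean CPM per kb of reference exon (y axis, log scale) with SD bars for each of the 36 genes (x axis, by class, highest first) in the 4 groups. Group means of a gene lie close together beside the distances between genes, from Gria1 at 221 CPM per kb to Grm4 at 1.44 CPM per kb over all libraries.

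Among the AMPA receptor auxiliary proteins, Cnih2, a cornichon that slows channel closing, had 199.8 ± 19.5 CPM per kb (SD, n = 23), the second level of the 36 genes and 64.8% ± 1.61 of its class. Cacng8, the TARP (transmembrane AMPA receptor regulatory protein) most typical of hippocampus, had 39.8 ± 4.00, Cnih3 had 26.8 ± 2.76 and Cacng3 had 19.4 ± 2.37 CPM per kb. Shisa9, which modulates desensitisation in dentate granule cells, had 15.7 ± 1.23 and Cacng2, the TARP stargazin, had 6.67 ± 0.59 CPM per kb. Over shortened exons Cacng3 had 35.3 ± 4.32 CPM per kb, above Cnih3, which stayed at 26.8, and Cacng2 had 12.7 ± 1.13 CPM per kb. Cnih2 had 254, 305, 243, 263 and 309 CPM in XXF. It had 228, 259 and 315 CPM (lowest, median and highest) in XXM, 225, 268 and 305 CPM in XYF, and 247, 259 and 302 CPM in XYM, again with overlapping ranges.

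Cacng3 had 52.7, 70.7, 68.7, 55.6 and 57.7 CPM in XXF. It had 48.2, 53.0 and 57.7 CPM in XXM, 45.6, 52.7 and 59.0 CPM in XYF, and 44.0, 51.0 and 57.4 CPM in XYM. XXF replicates 2 and 3 lay above all other libraries, and the other 3 XXF libraries lay inside the XYF range. Cacng3 had the smallest adjusted p of the 36 genes for XYM minus XXF, at -0.28 (SE 0.084, edgeR adjusted p = 0.236). Its sex chromosome effect was -0.15 (SE 0.058, edgeR adjusted p = 0.597) and its gonad effect -0.13 (SE 0.058, edgeR adjusted p = 0.319). The gonad effect was -0.09 with the library total as a covariate. Cacng2 had a sex chromosome effect of -0.12 (SE 0.048, edgeR adjusted p = 0.630).

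**Figure D4:**
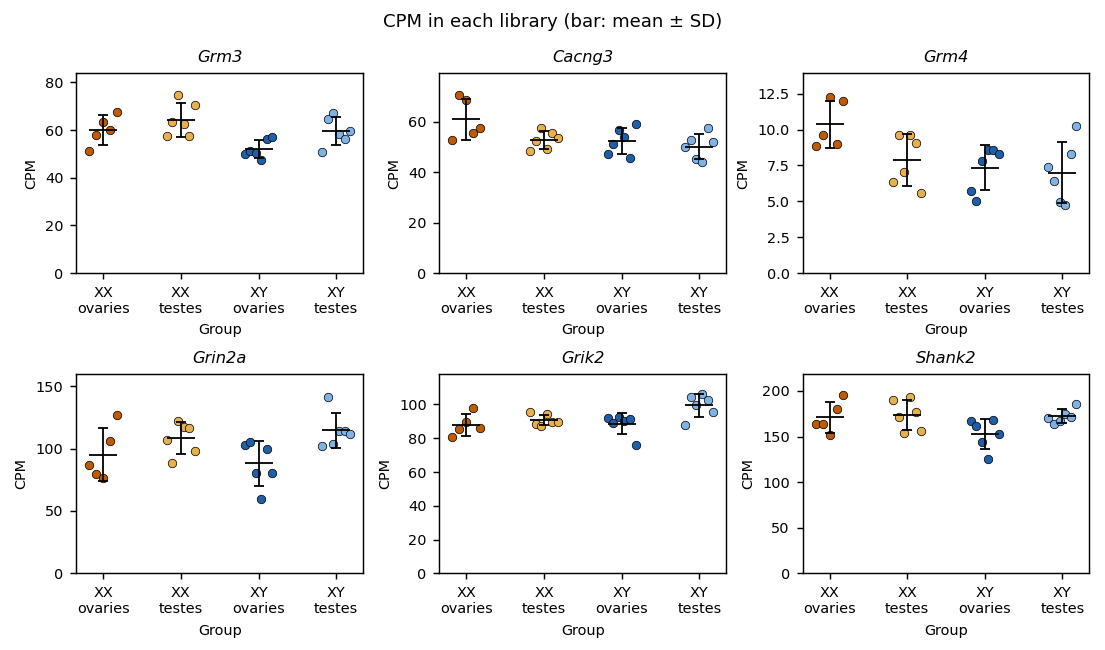
CPM (y axis, from 0) of Grm3, Cacng3, Grm4, Grin2a, Grik2 and Shank2 in each library, by group (x axis), with bars for mean ± SD of 5 or 6 libraries. Groups overlap apart from Grm4 in XXF and XYF, where the lowest XXF library has 8.89 CPM and the highest XYF library 8.59 CPM, and Grm3 in XXM and XYF, where these are 57.33 and 57.31 CPM.

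Among the MAGUK scaffolds, Dlg4, encoding PSD-95, had 65.1 ± 4.30 CPM per kb (SD, n = 23), Dlg3 (SAP102, X-linked) had 55.4 ± 2.30, Dlg2 (PSD-93) had 53.0 ± 2.79 and Dlg1 (SAP97) had 20.5 ± 1.41. Dlg3 and Dlg2 did not differ beyond their spread, and Dlg4 made up 33.5% ± 1.45 of the class. Dlg2 stood above Dlg3 over shortened exons (57.9 ± 3.05 against 55.4 ± 2.30 CPM per kb). The same held over the longest transcript (60.3 ± 3.18 against 59.1 ± 2.45), again within the spread. Over the longest transcript Dlg4 had 124 ± 8.16 CPM per kb. Dlg4 had 755, 849.6, 727, 794 and 829.6 CPM in XXF. It had 713, 773 and 857 CPM (lowest, median and highest) in XXM, 687, 764 and 922 CPM in XYF, and 745, 779 and 827 CPM in XYM. The XYF range enclosed the other 3 ranges. Dlg1 had a sex chromosome effect of -0.08 (SE 0.040, edgeR adjusted p = 0.729). Dlg3 and Gria3 were the steadiest of the 36 genes, each with an SD of 0.06 log2 CPM around the group means, below the 10th percentile of genes of like level.

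Shank1, a master scaffold beneath PSD-95, had 39.0 ± 5.45 CPM per kb (SD, n = 23) and 38.9% ± 2.27 of the Shank and Homer class. Shank3 had 35.4 ± 4.27, Shank2 had 16.6 ± 1.62, and Homer1, which ties group I metabotropic receptors to Shank, had 8.996 ± 0.72 CPM per kb. Levels of Shank1 and Shank3 did not differ beyond their spread with full exons. Over shortened exons Shank1 had 50.5 ± 7.05 and Shank3 36.5 ± 4.40 CPM per kb, which did not overlap in mean ± SD. Over the longest transcript Homer1 had 18.1 ± 1.46 CPM per kb, beside Shank2 at 18.6 ± 1.81. Shank1 had 395, 392, 312, 420.2 and 451 CPM in XXF. It had 307, 378 and 440.2 CPM (lowest, median and highest) in XXM, 264, 384 and 459.8 CPM in XYF, and 333, 390.5 and 472 CPM in XYM, with overlap among all groups. Shank2 had 164, 164, 152, 179.8 and 196 CPM in XXF. It had 154, 174 and 194 CPM in XXM, 125, 157 and 169 CPM in XYF, and 164, 171 and 186 CPM in XYM. XYF was lowest by median, and its range overlapped the other 3. The interaction of Shank2 was 0.15 (SE 0.103, edgeR adjusted p = 0.999) and 0.05 with the slopes as covariates.

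Below the threshold, the 36 genes leaned differently in the 2 averaged effects. For the sex chromosome effect 24 were lower and 12 higher in XY, with a median log2 fold change of -0.02 beside 0.00 over all genes, of which 50.9% were higher. By edgeR, 9 of 36 had an unadjusted p under 0.05. Of these, 8 were lower in XY, against 3.41% of all genes, and Gria1 was higher, against 3.37%. Both group II receptors, 2 of 3 group III receptors and 2 of 6 auxiliary proteins were among the 8, with Grik3 at -0.15 (SE 0.068, edgeR adjusted p = 0.693) and Dlg1. The count of 9 was 5 without XXF replicate 2, XXF replicate 5, XXM replicate 2, XYF replicate 1 or XYM replicate 3, 4 without XYM replicate 4 and 8 without XYF replicate 4.

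For the gonad effect 25 were higher and 11 lower with testes, with a median of 0.04 beside 0.00 over all genes, of which 49.0% were higher. Unadjusted p was under 0.05 for 6 of 36 genes, 5 higher with testes against 6.49% of all genes, and Cacng3 lower against 7.14%. The count was 12 without XXF replicate 5, 3 without XXF replicate 2 and 4 without XYF replicate 4. The interaction had 30 of 36 genes above 0, beside 47.8% of all genes, a median of 0.08 beside -0.01, and 0 genes with an unadjusted p under 0.05 by edgeR, against 3.23% of all genes. DESeq2 and limma voom also gave 0 there. The 36 genes share the same libraries, and single libraries move this lean for many genes at once. By its formula, high values in XXF or XYM and low values in XYF or XXM add to the interaction, and the reverse takes from it. Libraries with 26 or more genes on 1 side of their own mean are given here. Those adding to it were XYF replicate 4 (29 below), XXF replicates 5 (31 above) and 4 (26 above), and XYM replicates 6 (31 above) and 5 (28 above). Those taking from it were XXF replicate 1 (30 below) and XXM replicate 5 (26 above). The count above 0 without single libraries is not given here. XYM minus XXF had 19 genes higher and 17 lower, beside 50.2% of all genes higher. At an unadjusted p under 0.05 there were 2 higher (4.75% of all genes) and 4 lower (5.38%), or 11 in all without XXF replicate 5.

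For the neighbouring groups, XYM minus XYF had 7 of 36 genes at an unadjusted p under 0.05 by edgeR, all higher in XYM, against 3.97% of all genes. Without XYF replicate 4 the count was 2, and without XYM replicate 2, 4 or 6 it was 4. XYF minus XXF had 4 such genes, all lower in XYF, against 2.33% of all genes, with 7 when XXF replicate 1 and 2 when XXF replicate 3 was left out. XYM minus XXM and XXM minus XXF had 1 each, against 5.29% and 7.71% of all genes, Grik2 in the former and Cacng3 in the latter. These comparisons share libraries with each other and with the averaged effects.

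Single libraries stood apart across many of the 36 genes. XYF replicate 4 was the lowest of the 23 libraries for 14 of 36 genes and lay below the gene's own mean for 29, with a median log2 deviation of -0.17. The 14 included Grin2a, Grin2b, Cnih2, Dlg4, Shank1, Shank2 and Shank3. XXF replicate 5 was the highest library for 8 of 36 genes and lay above the own mean for 31, with a median deviation of 0.12. XXF replicate 1 lay below for 30 genes, with a median of -0.08. The part of the striatal and thalamic marker levels of XYF replicate 4 in its low values was not tested. Shares of all genes in these libraries are not given here, so the counts do not show that the 36 genes differ from others in this.

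Deviation from a gene's own mean followed base composition in the libraries with the steepest GC slopes. The slope, fitted over 12946 genes as the change of log2 CPM per 10 percentage points of transcript GC, was highest in XYF replicate 6 (0.14) and lowest in XXM replicate 3 (-0.17). Its ranges overlapped among the groups, from -0.07 to 0.11 in XXF, -0.17 to 0.02 in XXM, -0.09 to 0.14 in XYF and -0.09 to 0.08 in XYM. In XYF replicate 6, 11 of the 12 genes of highest GC content, among them Shank1 and Cacng8, lay above their own mean, with a median deviation of 0.14. In the same library 9 of the 12 genes of lowest GC content, among them Gria2, lay below, with a median of -0.15. XXM replicate 3 showed the opposite, with 11 of the 12 high-GC genes below their mean (median -0.21) and 8 of the 12 low-GC genes above (median 0.07). XYF replicate 6 also had the lowest slope of log2 CPM on transcript length of the libraries (-0.09 per doubling). The low-GC Gria2 has a long transcript as well (10371 bases). The part of length in the deviations of single genes was not tested. Over the 36 genes, which share these libraries, the response to the slope rose with GC content, with Pearson's r = 0.85 and Spearman's rho = 0.83 as a description. The slope is itself fitted on GC content over 12946 genes, the 36 among them, and both libraries were picked for their slopes. A relation of this direction is therefore largely built in, and the counts and correlations are no separate test of it. Counts over all genes are not given here. The transcripts of Gria2 and Cacng8, whose windows are printed above, had the lowest and the highest GC content of the 36 genes.

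**Figure D5:**
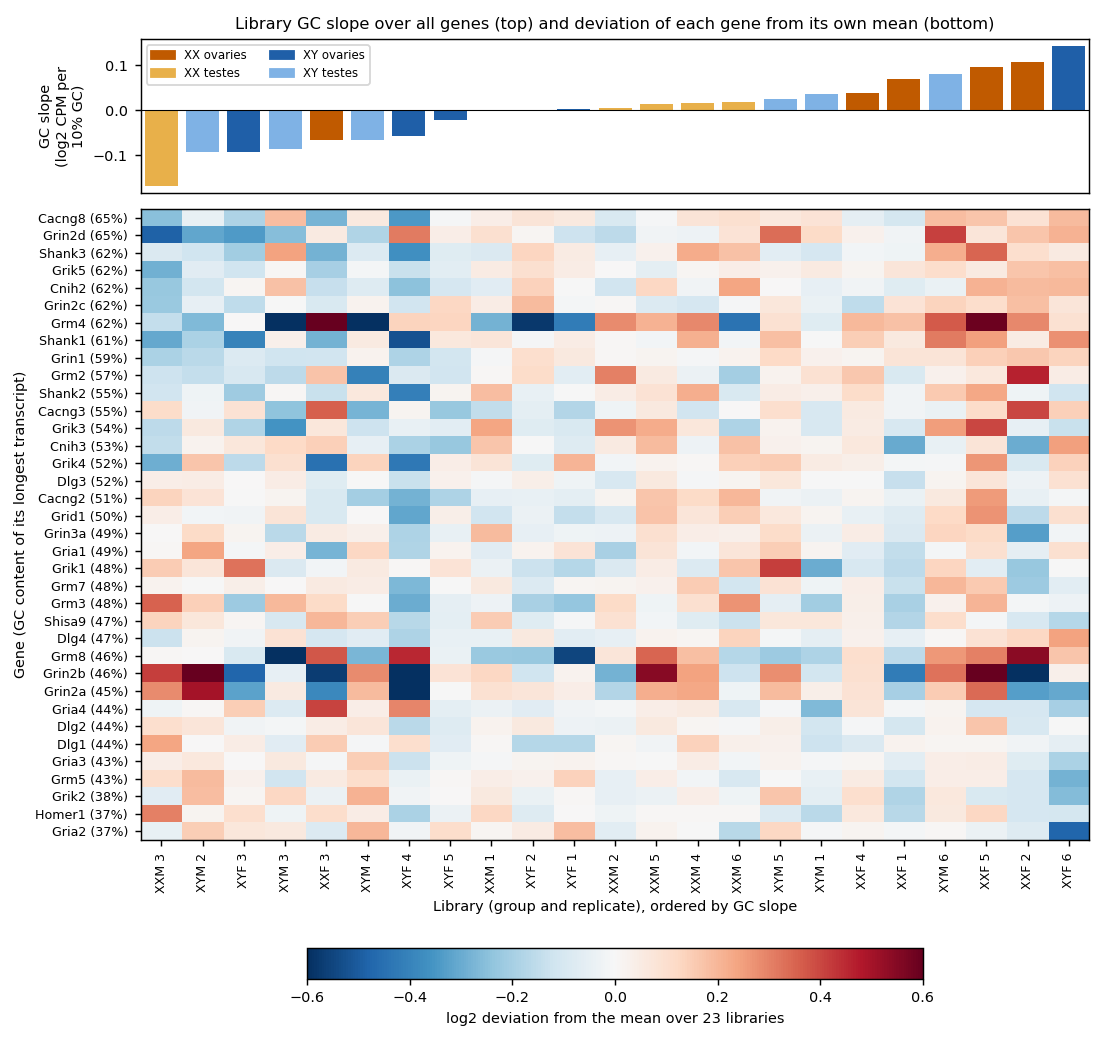
Top, GC slope of each library (y axis, log2 CPM per 10% GC), coloured by group and ordered from lowest to highest. Bottom, log2 deviation of each gene (rows, GC content of the longest transcript falling from top to bottom) from its mean over 23 libraries, with red above and blue below; the high-GC rows are mostly blue in XXM replicate 3 and mostly red in XYF replicate 6.

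As a class the genes varied a little more than genes of like level in their SD around group means. Their median SD was 0.13 log2 CPM, and the median percentile among genes of like level was 67.7. There were 6 of 36 at or above the 90th percentile, namely Grin2b, Grin2a, Shank1, Shank3, Grik4 and Grm4, and 2 at or below the 10th. Shank1 had an SD of 0.22, and 0.13 after removal of the slopes.

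Of 52 other genes of the glutamatergic synapse on a separate list (further receptor subunits, auxiliary and scaffold proteins, adhesion proteins, and glutamate transport and metabolism), 47 were in the table. None passed the threshold of 0.05 on edgeR's adjusted p for the sex chromosome effect, the gonad effect, the interaction or XYM minus XXF, and 8, 9, 1 and 12 of 47 had an unadjusted p under 0.05, beside 6.78%, 13.6%, 3.23% and 10.1% of all genes. Their median log2 fold changes were -0.01, 0.03, 0.03 and 0.03. For the sex chromosome effect, Nsf, an ATPase that binds GluA2, had the smallest p among those above 0, at 0.13 (SE 0.037, edgeR adjusted p = 0.261). Gsg1l, an AMPA receptor auxiliary protein, had the smallest p among those below 0, at -0.37 (SE 0.107, edgeR adjusted p = 0.278). For the gonad effect these were Shisa6, an AMPA receptor auxiliary protein, at 0.25 (SE 0.075, edgeR adjusted p = 0.172) and Slc17a6, the vesicular glutamate transporter VGLUT2, at -0.28 (SE 0.164, edgeR adjusted p = 0.462). Slc17a6 is also on the thalamus marker list, whose summed level overlapped among the 4 groups.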

How the data were processed

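Members and lists were chosen with earlier results of these data known. Hippocampal RNA (500 ng) was sequenced as strand-specific libraries, 1 per animal, per the labels' protocols. The description calls the RNA rRNA-depleted while the extract protocol names an mRNA kit, and how both were combined is not stated. The authors deposited estimated counts per RefSeq gene and log2 normalized values, per the file headers; mm10 and DESeq are named in the submitters' processing notes, and no aligner is named in the sources used here. The deposited table keeps genes with at least 20 counts in 100% of the libraries of a group, per the file headers. The estimated counts were rounded and fitted with edgeR 4.0.16 (R 4.3.3), TMM scaling and 4 group means over all 23 libraries. Benjamini-Hochberg adjustment covered all 13766 genes, and the code was tested on simulated data. Lengths and GC content came from GENCODE M21 exons. Spread used log2(CPM + 0.5). Values by library (all 5 in XXF, otherwise the lowest, median and highest) are given for the 3 genes of smallest p in each of the 2 averaged effects, the interaction and XYM minus XXF, and for the top gene of each class of 2 or more. Grin2b, Grid1 and Grm5 were added after their values were seen. Alternatives used DESeq2 1.42.0, limma 3.58.1, other scalings, filters, covariates and leaving out each library; the GC and length slopes and the shortened exons were added after seeing the data.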

Additional observations from a re-analysis of the deposited data

Results flagged for a closer look

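In 10 of 144 combinations of gene and group, 1 library lay far from the others of its group relative to the group's range. Chance alone flags about 1 in 20 groups, or 7.2 of 144. No cause was tested. XYF replicate 6 was the library with the highest GC slope and the lowest length slope. It had 718 CPM of Gria2 against 984 to 1135 in the other XYF libraries, and 76.2 CPM of Grik2 against 88.9 to 92.3. XXM replicate 3, the library with the lowest GC slope, had 429.9 CPM of Grin1 against 489 to 498 in the other XXM libraries, and 186 CPM of Grik5 against 218 to 235. XXF replicate 5 had 80.2 CPM of Grid1 against 59.5 to 64.4 in the other XXF libraries, and 43.9 CPM of Cacng2 against 34.4 to 37.1. XYM replicate 3 had 302 CPM of Cnih2 against 247 to 267 in the other XYM libraries, and 64.1 CPM of Shisa9 against 71.9 to 76.2. XYM replicate 2 had 141 CPM of Grin2a against 102 to 114. XYF replicate 4 had 50.9 CPM of Grin3a against 56.0 to 58.8.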

How the results depend on the processing

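The count of 0 of 36 genes past the threshold held in each of the 285 refits of the 8 comparisons, which changed the scaling, filter, tool, covariates or libraries. The smallest adjusted p of any refit was 0.157 for the sex chromosome effect (edgeR without XYF replicate 6), 0.0609 for the gonad effect (edgeR without XXF replicate 5), 0.748 for the interaction and 0.0892 for XYM minus XXF (both limma voom with sample quality weights). None of 846 refits of 24 fold changes changed sign or side of the threshold. These 24 came from the 2 averaged effects, the interaction and XYM minus XXF. They were the genes of the 36 with an unadjusted p under 0.05 by edgeR, or the 3 of smallest p. The other fold changes named above, such as the sex chromosome effect of Gria3 and those of the separate list, were not among them. The count over all genes was less stable. It ran from 34 to 68 for the sex chromosome effect (39 as reported), 10 to 98 for the gonad effect (22), 0 to 3 for the interaction (0) and 12 to 123 for XYM minus XXF (18). For the neighbouring groups it ran from 32 to 58 for XYF minus XXF (40), 15 to 22 for XYM minus XXM (16), 0 to 1 for XXM minus XXF (0) and 15 to 50 for XYM minus XYF (31).

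Class shares moved with the length used. With exons shortened to the deposited spans, Gria1 made up 51.5%, Grin1 65.2%, Grik5 55.6%, Grm3 53.4%, Cnih2 59.8%, Dlg4 37.1% and Shank1 41.7% of their classes. With the longest transcript as length, Dlg4 made up 46.2% and Shank1 34.6%. After removal of the GC and length slopes, 10 of 36 genes rather than 6 were at or above the 90th percentile of spread. No paired analysis was possible because the replicate numbers follow the order of the samples and the labels tie no animals across groups. With 5 or 6 animals per group, any difference inside the 95% interval of a gene remains compatible with its values. The intervals are for single genes and are not adjusted for the number of genes tested.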
